A study of Mus musculus with 2 samples.

Results

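The 9 genes described here encode chains of the receptors through which cytokines act on blood progenitors. They are Epor, Csf3r, Csf2ra, Csf2rb, Il3ra, Il6ra, Il6st, Il7r and Il2rg. The rule that defines the set is membership of this receptor family and uses no measured value. Binding of Myb to them was measured by ChIP-Seq in WT mouse bone marrow from which cells bearing lineage markers had been depleted (Lin– cells), a mixed population that holds the stem cells and progenitors, with a labeled purity above 80%. There were 2 samples, both labeled WT, the Myb precipitate and a rabbit IgG precipitate of the same kind of cells. The name WT stands in the methods for C57BL/6 mice with floxed Ep300 alleles (Ep300 fl/fl) and no Cre, which like the other genotypes received poly(I:C), the inducer of Mx1-Cre, at 6 to 8 weeks of age. The labels of the 2 samples name neither the floxed alleles nor poly(I:C), and the number of mice pooled is not given in the sources used here. Each antibody had 1 library and no replicate, so no difference could be tested and no p-value was computed across peaks. The intervals below cover counting error only, since each antibody had 1 library. PCR copies are not independent molecules, so any left after the removal of duplicates would make these intervals too narrow. A peak was given to a gene when its summit, the base of highest signal, lay in the gene body or within 30 kb of it in the GENCODE vM21 annotation of mm10. By this rule, 22 of the 25793 Myb peaks belonged to the 9 genes. A peak list holds no transcript, so the labeled cell type could not be checked against its marker genes. In a mixed fraction, a weakly bound site in many cells and a strongly bound site in few cells cannot be told apart.

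Cytokine receptors of this family have no enzymatic activity of their own. Binding of the cytokine brings chains together, and JAK kinases held by the chains then phosphorylate STAT proteins, which enter the nucleus. Private chains give specificity for 1 cytokine, and shared chains carry the signal for several. Epor is the receptor for erythropoietin and is required for the survival of red cell precursors. Csf3r is the receptor for G-CSF, the main cytokine of neutrophil production. Csf2ra and Il3ra are the private chains for GM-CSF and IL-3, and Csf2rb is the common beta chain, which pairs with both of them and with the IL-5 chain. Il6ra binds IL-6 and signals through Il6st, known as gp130, which serves the whole IL-6 group of cytokines. Il7r is the IL-7 receptor alpha chain, needed by B and T lymphoid progenitors, and Il2rg is the common gamma chain with which it pairs. Myb is a transcription factor required by hematopoietic progenitors.

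To determine where Myb peaks lay around these genes, the summits were counted for each gene. Myb peaks were found at 8 of the 9 genes, 88.9% (exact Clopper-Pearson 95% interval 51.75–99.72), and Il2rg was the gene without one. The background is high, since 62.8% of all 21938 protein-coding genes had at least 1 summit in the same window, and that value lies within the interval. Il3ra had 6 peaks, Csf2rb 5, Epor and Csf2ra 3 each, Il6ra 2, and Csf3r, Il6st and Il7r 1 each. In all, 17 of the 22 peaks lay at Epor and at the 3 receptor chains for GM-CSF and IL-3. Of the 22 summits, 11 lay inside a gene body, 6 upstream and 5 downstream. A summit in the body was found at 5 of the 9 genes, against 35.4% of protein-coding genes. The median was 2 peaks per member, against 1 per coding gene window with quartiles of 0 and 4. The member windows summed to 730.2 kb and held 3.013 peaks per 100 kb (exact Poisson 95% interval 1.888–4.561, which treats peaks as independent events). The genome held 0.9742 peaks per 100 kb. The windows of all coding genes together, which cover 57.72% of sequenced bases and hold 91.77% of the peaks, held 1.549. In that union each base and peak counts once, however many genes share it. It is therefore not a mean over single gene windows, which was not computed, and it is not a like measure for the member density.

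**Figure D1:**
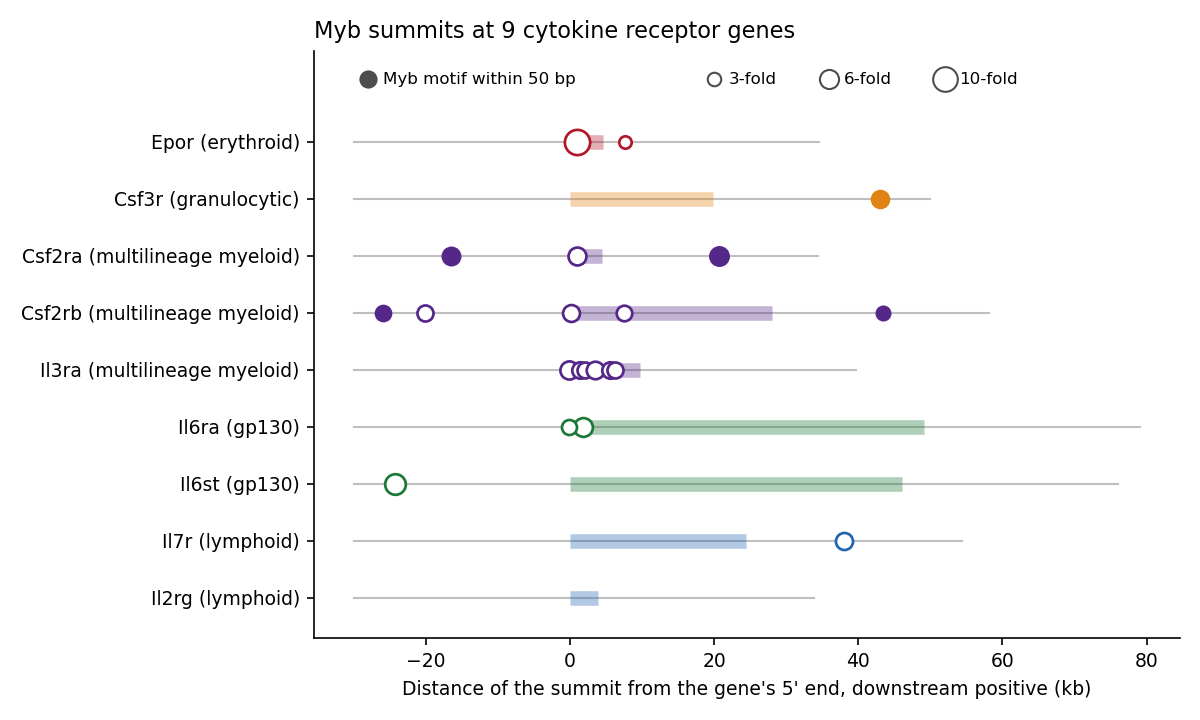
Myb summits by their distance in kb from the 5′ end of each gene, with downstream to the right, the gene body as a thick bar and the 30-kb flanks as a thin line. Circle area is the fold enrichment and filled circles have a Myb motif within 50 bp; the 6 Il3ra summits span 6.36 kb, beginning 94 bp upstream of the start, and the filled circles lie away from the gene bodies.

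**Figure D2:**
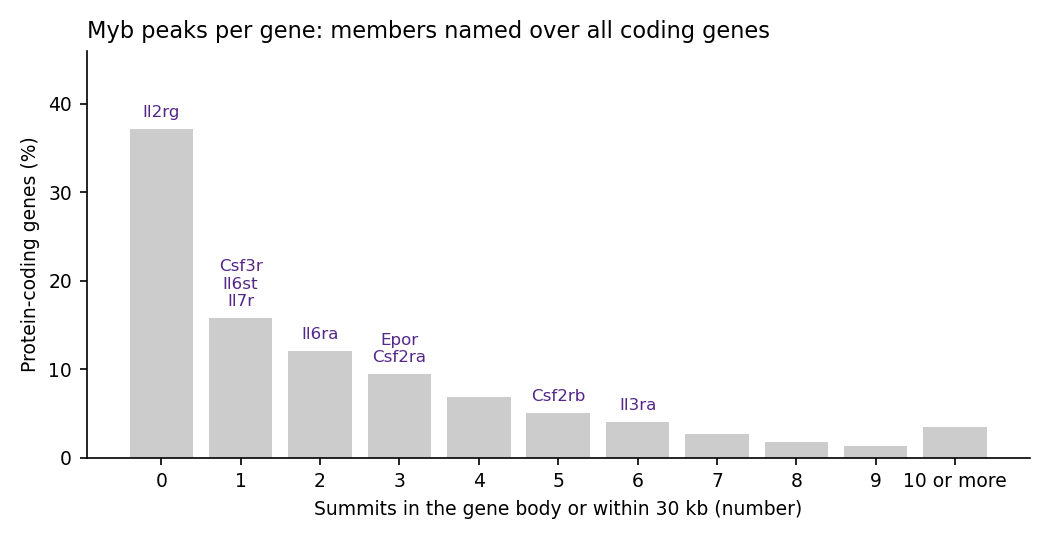
Share of all protein-coding genes in percent (vertical axis) by the number of Myb summits in the gene body or within 30 kb (horizontal axis), with the 9 receptor genes named above their number. Il3ra had 6 and Csf2rb 5, and at least as many were found at 13.5% and 18.6% of protein-coding genes. Il2rg lies in the bar at 0.

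Promoter peaks, with a summit within 3 kb of an annotated transcript start, were found at 5 of the 9 genes, 55.6% (21.2–86.3), against 39.9% of protein-coding genes. They were Epor, Csf2ra, Csf2rb, Il3ra and Il6ra, and they carried 12 such peaks. Within 500 bp of the 5′ end of the gene alone, 3 of them had a summit, Csf2rb, Il3ra and Il6ra. Csf3r, Il6st and Il7r had a peak in the window but none at the promoter. Within 10 kb of the gene body the same 5 genes had peaks, against 52.6% of protein-coding genes. Where a peak lies near several genes, distance does not show which gene it acts on. The nearest protein-coding start was that of the member for 17 of the 22 peaks and that of another gene for 5.

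The DNA under 8 of the summits is shown here because the motif results below turn on it. All windows are 101 bases centered on the summit, read from the mm10 forward strand, 5′ to 3′. The first 5 are the summits that hold the Myb motif, in capitals, which on either strand was CAACTG or else CAACGG, including the forms of both that begin with T, namely TAACTG as well as TAACGG. The next 2 hold the ETS motif, CGGAAG or AGGAAG on either strand, in capitals. The last is the strongest peak of the set, at Epor, which held none of the motifs counted here and so has no capitals.
Csf3r, chr4:126067457-126067557: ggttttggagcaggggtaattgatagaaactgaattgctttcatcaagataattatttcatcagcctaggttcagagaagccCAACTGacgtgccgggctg
Csf2ra downstream, chr19:61207667-61207767: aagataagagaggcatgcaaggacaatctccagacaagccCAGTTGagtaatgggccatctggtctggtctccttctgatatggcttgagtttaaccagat
Csf2ra upstream, chr19:61244864-61244964: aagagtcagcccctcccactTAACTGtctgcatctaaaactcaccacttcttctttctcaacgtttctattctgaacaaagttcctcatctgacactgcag
Csf2rb upstream, chr15:78299801-78299901: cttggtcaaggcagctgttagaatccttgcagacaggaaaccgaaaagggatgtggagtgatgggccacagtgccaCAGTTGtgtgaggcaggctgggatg
Csf2rb downstream, chr15:78369161-78369261: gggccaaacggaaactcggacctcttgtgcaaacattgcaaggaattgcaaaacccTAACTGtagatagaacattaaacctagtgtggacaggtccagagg
Il3ra start, chr14:14346131-14346231: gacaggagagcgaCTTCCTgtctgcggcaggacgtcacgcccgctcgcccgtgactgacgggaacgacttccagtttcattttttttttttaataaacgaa
Il6ra intron 1, chr3:89911363-89911463: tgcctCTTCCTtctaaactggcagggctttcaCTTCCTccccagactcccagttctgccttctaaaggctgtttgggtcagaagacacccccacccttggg
Epor, chr9:21962548-21962648: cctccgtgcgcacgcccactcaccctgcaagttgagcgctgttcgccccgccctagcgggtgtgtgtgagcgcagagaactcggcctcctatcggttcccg

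Fold enrichment, the ratio computed by the authors of Myb signal to IgG background at each summit, ranged from 2.53 to 10.5 over the 22 peaks. This ratio is taken after 1 is added to both signal and background, so it is lower than the plain ratio. The median was 4.57 (order-statistic 95% interval 3.99–5.28), against 4.51 over all peaks, and 11 of the 22 lay at or above that all-peak median. The upper quartile of all peaks, 5.95, was passed by 2 peaks, those of Epor and Il6st. The reads behind each summit, recovered from the fold enrichment and the p-value, numbered 12 to 42 with a median of 18, which was also the median of all peaks. At this depth the interval of a single peak is wide, and 18 of the 22 intervals hold the median of all peaks. A q-value above 0.05 was given to 1 member peak, downstream of Epor, as it was to 7.24% of all peaks. A −log10 q-value of at least 5 was reached by 9 of the 22, 40.9%, against 43.1% of all peaks. In strength, then, the receptor peaks lay in the middle of the list.

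**Figure D3:**
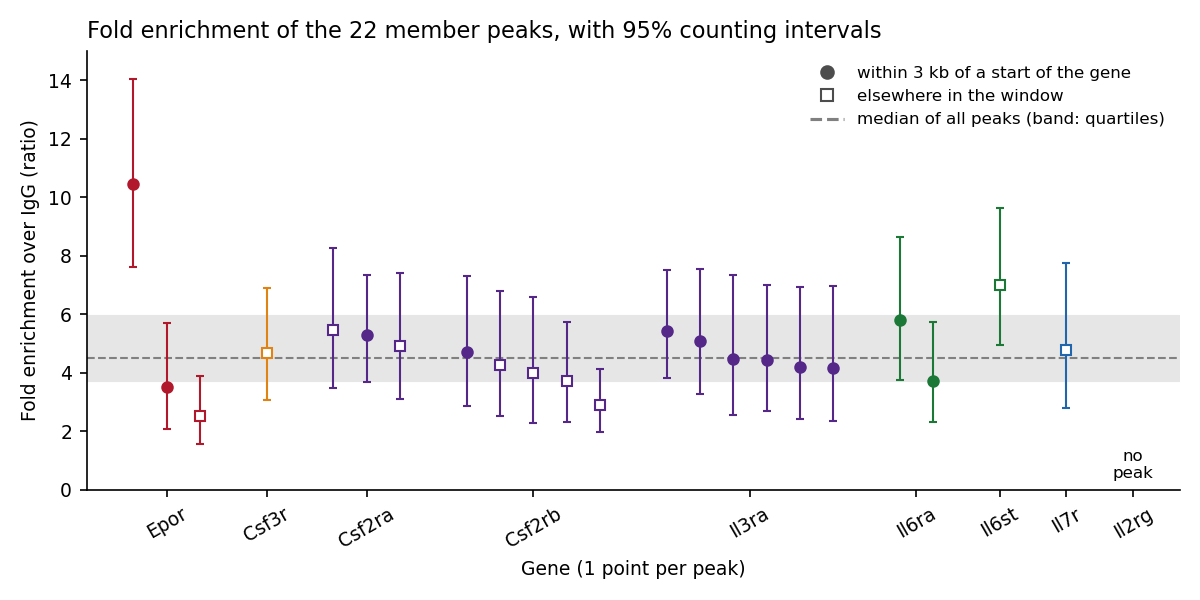
Fold enrichment over IgG (vertical axis, a ratio) of each of the 22 peaks, grouped by gene, with bars for the exact Poisson 95% interval of the reads. The shaded band and dashed line are the quartiles and median of all peaks; the Epor intron peak, at 10.5, lies above the band with its whole interval and 18 peaks have intervals that cross the line.

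The strongest peak of the set lay at Epor, the erythropoietin receptor (ENSMUSG00000006235.6, chr9:21958897-21963506, minus strand). It spanned chr9:21962118-21962983 with a fold enrichment of 10.5 (7.63–14.0) from 42 reads (30.3–56.8) and a −log10 q-value of 22.6. Only 3.73% of all peaks, 961, were as strong or stronger. The interval of this peak did not overlap that of the other 2 at Epor. The summit lay in intron 1 of the longest coding transcript, 908 bp downstream of the 5′ end of the gene and 34 bp upstream of the start of another annotated coding transcript. The DNA around it was GC rich, with 67.3% G and C in the 101 bases and 11 CpG pairs. A Myb motif occurred once in the whole peak but not within 50 bp of the summit. A weaker peak lay in intron 2 at chr9:21961790-21962031, with a fold enrichment of 3.52 (2.06–5.71) from 14 reads. The remaining peak lay 3.02 kb past the 3′ end of Epor at chr9:21955813-21956290, with a fold enrichment of 2.53 (1.57–3.90) from 18 reads and a −log10 q-value of 0.956. It was 119 bp from the start of Swsap1, a neighboring gene, and was the weakest of the 22. Another 5 protein-coding genes lie in the Epor window, so it is a gene-dense one.

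Csf3r, the G-CSF receptor (ENSMUSG00000028859.14, chr4:126024550-126044440, plus strand), had no Myb peak in its body or at its promoter. Its only peak, chr4:126067254-126067826, lay 23.1 kb past the 3′ end. The fold enrichment was 4.67 (3.06–6.89) from 23 reads. The summit was inside Oscp1, 8903 bp from the start of that gene, which is the nearest coding start. A Myb motif began 32 bp from the summit, and 2 GATA motifs (AGATAA as well as AGATAG, including the forms that begin with T in place of the first A, on either strand) lay in the same window. The next nearest peak was 59.2 kb from the gene body and 346 bp from the start of Stk40.

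The chains of the GM-CSF and IL-3 receptors had 14 of the 22 peaks. Il3ra, the IL-3 receptor alpha chain (ENSMUSG00000068758.8, chr14:14346275-14356011, plus strand), had the most peaks of any member, 6, within 6.36 kb. Neighboring summits were 649 to 1967 bp apart. At least as many peaks were found at 13.5% of protein-coding genes in the 30-kb window. Counted in the body and 3 kb around it, 6 or more summits were found at 685 protein-coding genes, 3.12%, and at 33 of the 7630 genes no longer than Il3ra, 0.433%. This narrower count was not among the planned ones and was shaped on the member with the most peaks. Its shares describe the cluster and do not measure how rare such a cluster is. Beyond this cluster, the nearest peak was 225.4 kb away. The strongest peak of the cluster spanned the start of the gene at chr14:14345534-14346412, with its summit 94 bp upstream. Its fold enrichment was 5.43 (3.82–7.51) from 34 reads (23.5–47.5), with a −log10 q-value of 10.1. An annotated antisense transcript also covers this summit, and ChIP reads do not tell the strands apart.

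The other 5 summits of Il3ra lay in introns 1, 2, 4, 8 and 9 of the longest coding transcript. In that order, the fold enrichment was 4.47 from 13 reads, 4.15 from 12 reads, 5.07 from 22 reads, 4.44 from 16 reads and 4.20 from 13 reads. These values differ by less than their counting intervals, so their order could not be resolved at this depth. All 6 counted as promoter peaks, but only 3 lay within 3 kb of the 5′ end of the gene, and the rest were close to the start of a retained-intron transcript inside it. ETS motifs lay within 50 bp of 4 of the 6 summits, and none of the 6 held a Myb motif there. Over the whole peak, the one at the start held 2 Myb motifs, and those in introns 4 and 9 held 1 each. The gene itself is rich in the ETS letters, with 46 matches in its body, or 4.72 per kb, against 1.51 per kb of chromosome 14 and 1.23 to 3.8 per kb in the other 8 genes.

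Csf2ra, the GM-CSF receptor alpha chain (ENSMUSG00000059326.7, chr19:61223957-61228429, minus strand), had 3 peaks spread over 37.2 kb, and no other protein-coding gene lies in its window. The intronic peak at chr19:61225966-61227752 was the widest of the 22 at 1787 bp, with a fold enrichment of 5.28 (3.70–7.33) from 33 reads (22.7–46.3). Its summit was in intron 1, 993 bp into the gene and 60 bp upstream of an internal start, and it held a RUNX motif (TGTGGT or TGCGGT on either strand) but no Myb motif. The other 2 peaks both held a Myb motif. One lay 16.2 kb downstream at chr19:61207495-61207934, with a fold enrichment of 5.46 (3.47–8.26) from 20 reads. The other lay 16.5 kb upstream at chr19:61244603-61245103, with a fold enrichment of 4.91 (3.11–7.42), also from 20 reads. The 3 values differ by less than their intervals.

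Csf2rb, the common beta chain (ENSMUSG00000071713.6, chr15:78325752-78353847, plus strand), had 5 peaks. Its promoter peak at chr15:78325632-78326135 had a fold enrichment of 4.69 (2.87–7.32) from 17 reads (9.90–27.2), with its summit 205 bp into the gene and 33 bp from an annotated start. An intron 2 peak, 7.43 kb into the gene, at chr15:78332989-78333289, had a fold enrichment of 3.99 (2.30–6.57) from 13 reads. A downstream peak, 15.4 kb past the 3′ end, at chr15:78369047-78369379, had a fold enrichment of 2.91 (1.99–4.13) from 29 reads. That low ratio came from a high local background and not from few Myb reads. The background was 7 in units of pileup, in which each Myb read counts as 0.769. Its summit held a Myb motif 6 bp away and lay 37 bp from the start of a small noncoding RNA gene, while the nearest coding start, that of Tex33, was 19558 bp off.

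The other 2 Csf2rb peaks lay upstream in Csf2rb2, the neighboring gene for the IL-3-specific beta chain of the mouse, which is transcribed in the opposite direction. One was 44 bp from the Csf2rb2 start at chr15:78305446-78306028, with a fold enrichment of 4.25 (2.53–6.79) from 15 reads. The other was in a Csf2rb2 intron, 5769 bp from that start, at chr15:78299366-78300117, with a fold enrichment of 3.71 (2.30–5.72) from 18 reads. Both genes of this pair thus had 1 peak at the start and 1 in an intron. The genes are near-copies, and the matching peaks lie on matching DNA. The DNA around the start peaks aligned over 1096 columns with 90.5% identity and summits 53 bp apart. That around the intron peaks aligned over 600 columns with 88% identity and summits 20 bp apart. Near-copies can share reads. No stretch of 75 bases in any of the 5 Csf2rb peaks recurred within the surrounding 250 kb of this locus.

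**Figure D4:**
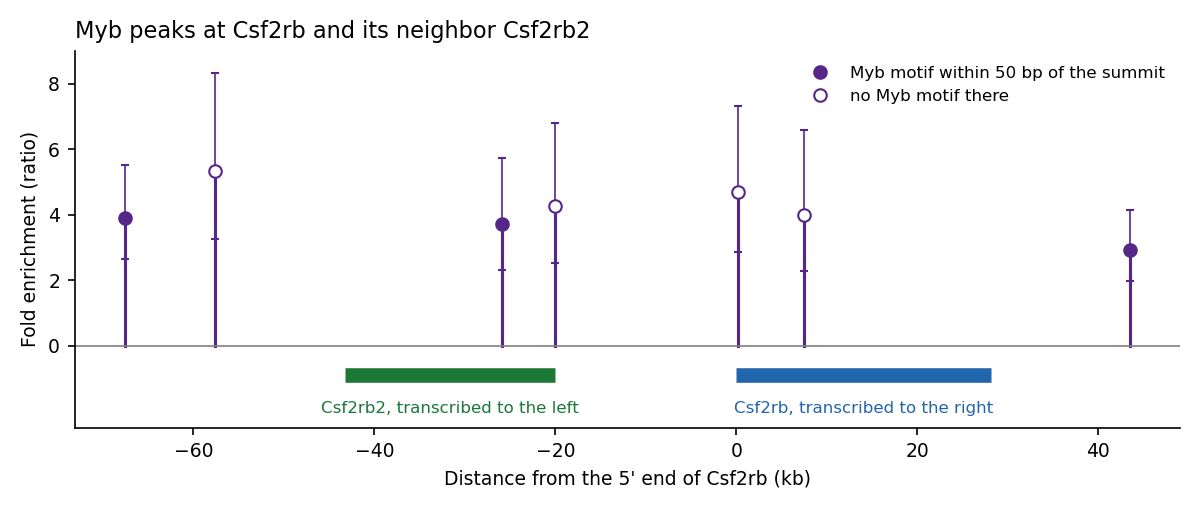
Fold enrichment (vertical axis, a ratio, with exact Poisson 95% intervals of the reads) of the 7 Myb peaks in the windows of Csf2rb or Csf2rb2, by distance in kb from the 5′ end of Csf2rb. Filled points have a Myb motif within 50 bp of the summit; each gene, drawn as a bar, has a peak at its start and another in an intron, and of these 4 only the Csf2rb2 intron peak is filled.

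The paired intron peaks differed at the Myb motif, so both stretches are shown on the sense strand of their gene, with the matching 6 bases in capitals.
Csf2rb intron, chr15:78333132-78333217, plus strand: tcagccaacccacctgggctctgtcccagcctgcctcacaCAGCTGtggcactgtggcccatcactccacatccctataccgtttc
Csf2rb2 intron, chr15:78299837-78299922, minus strand: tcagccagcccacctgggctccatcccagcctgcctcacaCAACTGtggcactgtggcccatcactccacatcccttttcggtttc
Taking the Csf2rb2 word first and counting from 1 at its 5′ end, the difference within the 6 bases was A3G. The Csf2rb2 copy matches the Myb motif and the Csf2rb copy, chr15:78333172-78333177 and 11 bp from its summit, does not. The fold enrichments of the pair, 3.71 and 3.99, differ by less than their counting intervals. The Csf2rb copy matches an E-box, CAGNTG, and so does the Csf2rb2 copy read on the opposite strand, since the reverse complement of the Myb word CAACTG is CAGTTG.

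The IL-6 receptor chains had 3 peaks. Il6ra, the ligand-binding chain (ENSMUSG00000027947.11, chr3:89864059-89913196, minus strand), had both of its peaks at the 5′ end of a gene of 49.1 kb. The stronger lay in intron 1 at chr3:89911128-89911536, 1783 bp into the gene, with a fold enrichment of 5.81 (3.76–8.63) from 22 reads (13.8–33.3). The other spanned the start at chr3:89913173-89913634, with its summit 142 bp upstream and a fold enrichment of 3.71 (2.30–5.72) from 18 reads. Their intervals overlap. Each held an ETS motif within 50 bp and no Myb motif, and an antisense transcript is annotated over the summit at the start.

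Il6st, the signal-carrying gp130 chain (ENSMUSG00000021756.12, chr13:112464070-112510086, plus strand), had no peak in its body or promoter. Its only peak, chr13:112439417-112440438, lay 24.3 kb upstream and was the second strongest of the 22. The fold enrichment was 6.98 (4.94–9.61) from 35 reads (24.4–48.7), with a −log10 q-value of 12.8. The Il6st start was the nearest coding start, and a noncoding RNA gene starts 3171 bp from the summit. None of the 6 motifs counted lay within 50 bp of it. A further peak lay just outside the window, 30.5 kb from the body, with a fold enrichment of 3.53 from 10 reads.

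The lymphoid receptor chains had 1 peak in all. Il7r (ENSMUSG00000003882.5, chr15:9505788-9530176, minus strand) had none in the gene or at its start, and its peak lay 13.6 kb past the 3′ end at chr15:9491999-9492281. The fold enrichment was 4.78 (2.80–7.74) from 14 reads, with a −log10 q-value of 3.62. The DNA there was poor in G and C, 28.7%, and the summit window held 3 GATA motifs, of which 2 were adjacent, and a C/EBP motif (TTGCNNAA) but no Myb motif. The window is shown for its GATA motifs, which are in capitals, on the forward strand.
Il7r, chr15:9492143-9492243: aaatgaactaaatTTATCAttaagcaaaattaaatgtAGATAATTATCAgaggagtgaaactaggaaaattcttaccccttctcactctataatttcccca

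Il2rg (ENSMUSG00000031304.18, chrX:101264378-101268255, minus strand) had 0 peaks in a window of 63.9 kb, and a count of 0 allows up to 3. The nearest peak was 64.3 kb away, with a fold enrichment of 5.40 from 16 reads, and was 18135 bp from the start of Nlgn3. Peaks were sparse on this chromosome, where 28.0% of the 948 protein-coding genes had a summit in their window and the median was 0. All of X held 376 peaks.

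Members were then compared by the lineage of the cytokine. The multilineage myeloid group of Csf2ra, Csf2rb and Il3ra had 14 peaks in 222.3 kb, or 6.298 per 100 kb (3.443–10.57). Epor, the erythroid receptor, had 3, or 4.643 per 100 kb (0.9575–13.57). Csf3r, the granulocytic receptor, had 1, or 1.252 per 100 kb (0.03169–6.974). The gp130 group of Il6ra and Il6st had 3, or 1.394 per 100 kb (0.2875–4.075). The lymphoid group of Il7r and Il2rg had 1, or 0.6745 per 100 kb (0.01708–3.758). In order, the multilineage myeloid and erythroid receptors came first and the lymphoid chains last, but each of these intervals overlaps the others. With −log10 q-values of at least 2, only 1 of the 3 Epor peaks remained, while the counts of the other groups were unchanged. The intervals treat peaks as independent, although 6 of the 14 multilineage peaks lie close together in Il3ra. Some of the peaks counted here lie nearest to the start of another gene. Counted by nearest coding start, there were 11 multilineage myeloid, 2 erythroid, 0 granulocytic, 3 gp130 and 1 lymphoid peaks. Among single genes, the peak density of Il3ra was reached by 7.17% of protein-coding genes, that of Csf2rb by 15.9%, and those of Epor and Csf2ra by 20.4% each. That of Il6ra was reached by 42.3%, that of Csf3r by 52.7%, that of Il7r by 54% and that of Il6st by 57.6%. These 4 lay near the middle of protein-coding genes, and Il2rg, on the peak-poor X, had no peak.

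Promoter peaks are 12 of the same 22 peaks, so their grouping is not a separate result. They numbered 8 in the multilineage myeloid group, 2 at Epor and 2 at Il6ra, and 0 at the granulocytic and lymphoid receptors. Of the 6 at Il3ra, 3 lay within 3 kb of the 5′ end of the gene. Strength did not follow the number of peaks. The median fold enrichment was 4.45 over the 14 multilineage peaks, 5.81 over the 3 gp130 peaks and 3.52 over the 3 Epor peaks, while the single Csf3r and Il7r peaks were at 4.67 and 4.78. These groups hold 1 to 3 genes each and Lin– cells are a mixture, so the lineage is that of the cytokine and not of the cells that gave the reads.

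The Myb motif lay within 50 bp of 5 of the 22 summits, 22.7% (7.82–45.4), against 16.7% of all peaks. The interval holds the value of all peaks. ETS motifs were at 8 summits, 36.4% (17.2–59.3), against 20.4% of all peaks, and C/EBP motifs at 4, 18.2% (5.19–40.3), against 6.16%. The start peaks of Csf2rb and Csf2rb2 share a copied ETS word, so in any count that holds both they are not independent, as the interval assumes. GATA motifs were at 5, 22.7% against 20.1%, RUNX motifs at 2, 9.09% against 12.2%, and E-boxes at 7, 31.8% against 25.9%. E-boxes overlap the Myb motif by construction where the Myb word is CAACTG. Of the 22 summit windows, 0 held both Myb and ETS motifs, against 3.47% of all peaks, and 5 held none of the 6 motifs, against 35.8% of all peaks. A match to short letters is a description of the DNA and not evidence of a bound site.

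Split by position, a division made after the values had been seen, the motifs were counted near the start and elsewhere. Of the 12 peaks within 3 kb of a start of their own gene, 0 held a Myb motif (0–26.5% by the exact interval, and a count of 0 allows up to 3 of 12, or 25%). An ETS motif was at 7 of the 12, 58.3% (27.7–84.8), and a GATA motif at 1. Of the other 10 peaks, 5 held a Myb motif, 50% (18.7–81.3), 4 held a GATA motif, and 1 held an ETS motif, the peak at the start of Csf2rb2. Within 10 kb of a member body, 0 of 14 peaks held a Myb motif within 50 bp of the summit. Farther from the summit, some peaks of Epor and Il3ra did hold one. For all peaks, the division can be made only by the distance to a start of any gene, and the receptor peaks were divided again in that way. The Myb motif was then at 2 of 16 receptor peaks within 3 kb of any start and at 3 of 6 elsewhere, against 14.7% and 19.4% of all peaks. The ETS motif was at 8 of 16 and 0 of 6, against 19.5% and 21.6% of all peaks. The GATA motif was at 3 of 16 and 2 of 6, against 15.5% and 26.4% of all peaks. The intervals of these small counts are wide, and for the Myb and GATA motifs they hold the shares of all peaks on both sides. Of the 12 promoter peaks, 6 are those of Il3ra, the gene with dense ETS letters, and 4 of the 7 ETS matches are its own.

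**Figure D5:**
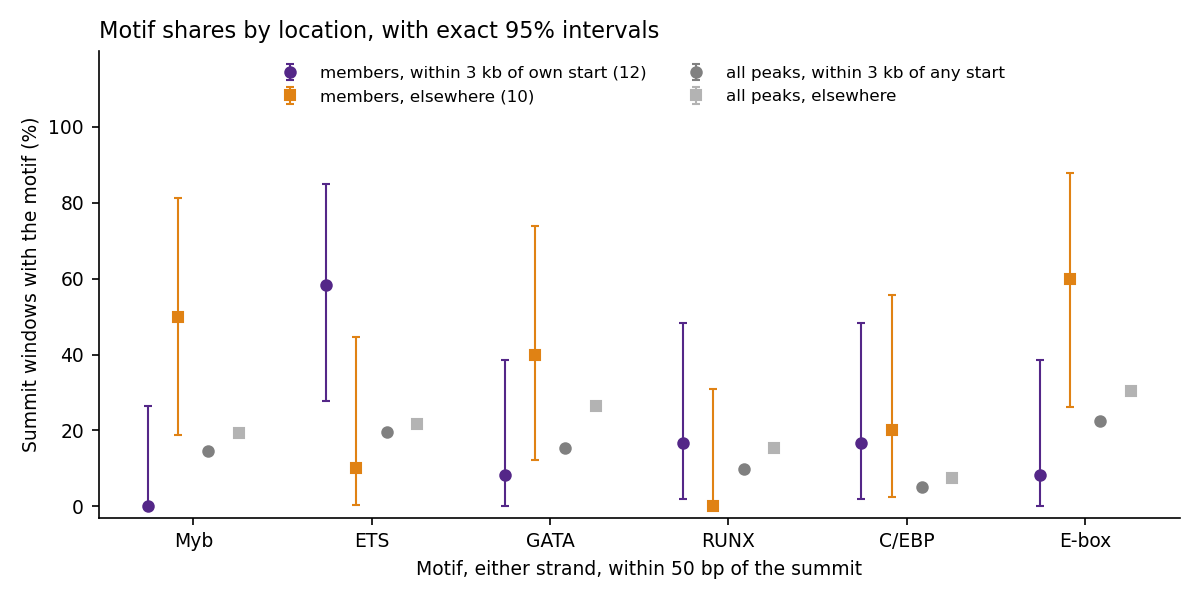
Share of summit windows in percent (vertical axis) that hold each motif within 50 bp (horizontal axis), with exact Clopper-Pearson 95% intervals, for receptor peaks near a start of their own gene and elsewhere, beside all peaks in gray. The Myb share is 0 of 12 and 5 of 10 in the receptor sets and the ETS share 7 of 12 and 1 of 10, while the gray points of all peaks, divided by the distance to a start of any gene, are at 14.7% and 19.4% for Myb and at 19.5% and 21.6% for ETS.

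RefSeq promoters of 300 bases (GRCm38.p6) were matched by symbol for 8 of the 9 genes, all but Csf2rb. A Myb peak overlapped 2 of them, those of Il3ra and Il6ra, against 21.8% of all 32851 such promoters. A Myb motif was in 1 of the 8, that of Il7r, where no peak was called, against 28.3% of all promoters of the same length. ETS motifs were in 6 of the 8, against 46.5%. The peaks of Epor and Csf2ra near the start lay inside the genes and did not reach the RefSeq promoter window.

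The other type I cytokine receptor genes, 22 genes listed from textbook membership, were counted in the same way. Of these, 13 had a peak in the window, 59.1% (36.35–79.29), close to the 62.8% of all protein-coding genes, and 4 had a promoter peak, 18.2% (5.19–40.3). The 4 were Lifr, Crlf2, Csf2rb2 and Il12rb2. The promoter share of the 9 members, 55.6%, has an interval that overlaps this one. No peak was found at Ghr, Prlr, Lepr, Osmr, Cntfr, Il9r, Il13ra1, Il13ra2 or Il23r, genes that include the receptors for growth hormone, prolactin and leptin. Csf2rb2 had 6 peaks, of which 4 are shared with Csf2rb, and the highest fold enrichment among them was 5.34. Il12rb2 had the most at 9, 8 of them nearest to the start of Serbp1. Il27ra had 5, all nearest to other genes, and Crlf2, a chain of the TSLP receptor that pairs with Il7r, had 4, reaching a fold enrichment of 5.98. Il11ra1, Il12rb1 and Lifr had 3 each, with highest fold enrichments of 8.22, 8.55 and 5.51.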

How the data were processed

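ChIP-Seq libraries of Myb and IgG were made from Lin– bone marrow cells of WT mice, with Tn5 adapter insertion on the beads. The authors used Cutadapt 1.15 for trimming, BWA 0.7.13 for alignment to mm10, Picard for duplicates and MACS2 2.1.1.20160309 for narrow peaks against IgG, kept by overlap of pseudo-replicates. These are parts of 1 library and carry no biological variation. The methods give a q-value below 0.05 for the calls. Of the deposited peaks, 7.24% had a q-value above 0.05, among them the member peak downstream of Epor. The deposited fold enrichment is the ratio of Myb pileup to background after 1 is added to each. The deposited p-values and q-values are on the −log10 scale. The deposited score repeats the −log10 p-value and was not used.

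The 9 members, the list of other receptors and the rules were chosen with earlier results of these data known. Groups were taken from the sample titles. All member peaks are described. Other receptors are named where they had no peak or a promoter peak, for Csf2rb2 and for those with the most peaks, including a tie at 3, and any other gene only where its coding start is nearest to a described peak. An item of the rule is not reported here.

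Total depth is unknown. Reads at each summit were recovered with a pileup scale of 0.769, which gave whole reads in 100% of rows within 0.002 on the −log10 p scale. Intervals of reads are exact Poisson, and intervals of fold enrichment are those of the reads over a fixed background, so error of the IgG background is not included. Intervals of shares are exact Clopper-Pearson, all at 95%. Coordinates are 1-based. Sequences were read from GRCm38, and pairs of peaks were aligned locally with Biopython 1.88. The other tools were Python 3.11.15, SciPy 1.17.1 and pandas 2.3.3. Counting was tested on simulated data. Alternatives were windows of 10 and 50 kb, −log10 q-values of at least 2 and 5, promoter windows of 1 kb and 500 bp, assignment by nearest coding start, and other motif forms and widths.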

Additional observations from a re-analysis of the deposited data

How the results depend on the processing

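Of 67 values under an alternative, 47 stayed close to the reported value, by a factor of at most 1.5 for counts and within its interval otherwise, and 20 moved. A window of 10 kb left 14 peaks, 5 members with a peak and a Myb motif share of 0.0%, with 0 granulocytic, 9 multilineage myeloid and 0 lymphoid peaks. A window of 50 kb gave 6 erythroid, 6 gp130 and 2 lymphoid peaks. With −log10 q-values from 2 upward, 1 erythroid peak remained, and from 5 upward 9 peaks did, with a median fold enrichment of 5.43, 1 erythroid, 5 multilineage myeloid and 0 lymphoid peaks. Assignment by nearest coding start left 6 of the other receptor genes with a peak and 0 granulocytic peaks. A Myb motif was in 45.5% of whole member peaks, against 58.6% of all peaks, and the looser form AACNG was in 63.6% of member summit windows, against 54.3%. The number of members with a promoter peak was 4 or 5 under 5 other settings, and 3 within 500 bp of the gene 5′ end, a setting chosen after seeing the data. No paired analysis was possible because each antibody had 1 library with no replicate number, and no replicate could be left out. Peaks of 12 to 42 reads leave intervals too wide to order most members by strength.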
